A study of Mus musculus with 12 samples.

Results

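The Akr1c genes described here are Akr1c12, Akr1c13, Akr1c14, Akr1c18 and Akr1c19, 5 of the 18194 genes that had a probe set of their own on the array. Each was represented by the 1 probe set whose array annotation names only that gene. They were chosen by the wild-type values of 1 gene, because Akr1c18 had the largest rise in wild-type ears between 2 and 6 weeks of age, so the differences between ages in wild type and between genotypes at 2 and 6 weeks are given as description, without a test. So is the genotype difference of Akr1c18 averaged over ages, since the arrays that chose it enter that average. Akr1c proteins are aldo-keto reductases, which use a nicotinamide cofactor to convert carbonyl groups and alcohols into each other on steroids, prostaglandins and products of lipid oxidation. By interconverting active and weak forms of progestins and androgens, they set how much hormone reaches its receptor inside a tissue. In skin, which makes and breaks down steroids locally, related enzymes also clear reactive aldehydes.

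Total RNA of whole ear was hybridised to 12 single-colour Affymetrix arrays, 2 for each of 6 groups. The groups were wild-type mice at 2, 4 and 6 weeks of age and mice homozygous for the Spade allele (Spade/Spade) at the same ages. Spade is known from its published description to make Jak1 overactive; Jak1 is a kinase that passes cytokine signals on to STAT proteins, and homozygotes are known to develop dermatitis. The allele is carried by all cells of the mouse. Strain and sex are not given in the sources used here. The labels do not say whether 2 samples of a group came from separate animals, so the p-values measure the spread between these samples. Jak1 itself was not lower or higher by the test in Spade/Spade ears, with a level between 11.5 and 12.3 on all arrays and an average difference of -0.15 ± 0.09 (log2 ± SE, adjusted p = 0.50, limma). Levels below are deposited GCRMA values on the log2 scale, whose floor lay at 2.14, and each comes with the detection call (present, marginal or absent) of the MAS5 software.

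MAS5 called 52.35% to 58.07% of probe sets present on each array. Replicates correlated at 0.985 to 0.994 across 11984 genes, except the 2-week Spade/Spade pair at 0.939. In that pair the mean level of 11 hair shaft genes was 11.5 on replicate 3 against 4.31 on replicate 2, and the calls between 6 and 2 weeks are given below without each of these arrays. Xist, which is expressed from the inactive X chromosome, lay at 2.74 on 4-week Spade/Spade replicate 1 and at 2.77 on 6-week wild-type replicate 1, against 12.3 to 12.9 on the other 10 arrays. The Y-linked Eif2s3y was at 11.5 on the first of these arrays and at the floor on the second. By the ranges of array numbers in the labels, all 2-week arrays lay in 1 range, both 4-week Spade/Spade arrays in another and both 6-week Spade/Spade arrays in yet another, so age and array range cannot be told apart within Spade/Spade.

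All 5 genes lie in 1 cluster on mouse chromosome 13, in the order Akr1c14, Akr1c18, Akr1c13, Akr1c19, Akr1c12, with Akr1c6, Akr1c20 and Akr1c21 beyond them and Ucn3 and Akr1e1 at either end, in RefSeq's annotation of GRCm38.p6. The 250 bases before the start of the 2 members detected on the most arrays are shown first, from RefSeq on the same build. They are chr13:4150647-4150896 on the minus strand for Akr1c18 and chr13:4059341-4059590 on the plus strand for Akr1c14, printed 5′ to 3′ along the gene. Capitals mark a run of 8 bases they share, which starts 245 bases before the start of Akr1c18 and 141 bases before that of Akr1c14. No shared run is longer, but another of the same length, tgccattg, is not marked.
Akr1c18: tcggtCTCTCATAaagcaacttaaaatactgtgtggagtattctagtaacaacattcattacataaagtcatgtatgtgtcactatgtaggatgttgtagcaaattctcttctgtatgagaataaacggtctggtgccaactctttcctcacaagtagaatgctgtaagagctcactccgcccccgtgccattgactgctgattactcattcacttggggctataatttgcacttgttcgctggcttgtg
Akr1c14: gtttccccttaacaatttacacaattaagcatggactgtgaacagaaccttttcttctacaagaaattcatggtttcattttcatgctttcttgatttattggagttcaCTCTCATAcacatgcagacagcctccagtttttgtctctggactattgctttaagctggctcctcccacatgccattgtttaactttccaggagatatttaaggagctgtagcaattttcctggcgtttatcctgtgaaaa
Aligned end to end, these neighbours were 55.9% identical, within the 48.36% to 60.3% of the other pairs of promoters apart from 1 pair. The exception was Akr1c12 with Akr1c13, at 92.52% (235 of 254 aligned columns), shown because a probe set of the array also reads both genes. They are chr13:4190937-4191186 on the plus strand for Akr1c13 and chr13:4279400-4279649 on the minus strand for Akr1c12, and capitals mark the bases that the other does not match.
Akr1c13: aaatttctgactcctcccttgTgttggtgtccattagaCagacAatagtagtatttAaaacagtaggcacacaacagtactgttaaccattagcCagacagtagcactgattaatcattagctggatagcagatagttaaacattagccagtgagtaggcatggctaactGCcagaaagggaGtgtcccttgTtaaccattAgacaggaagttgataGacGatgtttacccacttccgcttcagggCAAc
Akr1c12: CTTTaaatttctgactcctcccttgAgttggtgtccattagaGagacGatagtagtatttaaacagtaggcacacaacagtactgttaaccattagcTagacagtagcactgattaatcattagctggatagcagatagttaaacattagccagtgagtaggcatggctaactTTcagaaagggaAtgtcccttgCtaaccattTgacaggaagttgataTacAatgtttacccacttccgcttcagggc
These windows were searched on both strands for 3 motifs, the STAT site TTCNNNGAA, the NRF2 site TGACNNNGC and the steroid receptor half-site AGAACA. Across 32851 mouse promoter windows of that length, 7.02%, 10.2% and 16.1% held them. Akr1c12, Akr1c13, Akr1c14 and Akr1c18 had no match in this window, which says only that these letters are not in it, and Akr1c19 had 1 match to TTCNNNGAA, starting 24 bases before the start.

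Akr1c18 encodes the progesterone-inactivating hydroxysteroid dehydrogenase, known best from the mouse ovary, where it helps to end pregnancy by lowering progesterone. Its transcript went from not detected at 2 weeks to strongly detected at 6 weeks in both genotypes. At 2 weeks the 2 wild-type arrays read 3.36 and 2.84 and the 2 Spade/Spade arrays 3.36 and 3.32, and all 4 were called absent. At 6 weeks wild type read 10.5 and 10.0074 and Spade/Spade 10.8 and 10.0831, and all 4 were called present. The genotypes overlapped at both of these ages, and the ages did not overlap in either genotype, as for 40.3% of genes tested in wild type and 36.2% in Spade/Spade in this direction.

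At 4 weeks the replicates of each genotype split for Akr1c18. Wild type read 4.86 (absent) and 8.14 (present), and Spade/Spade 3.93 (absent) and 7.18 (present). The genotypes overlapped, and the spread within each, over 3 log2 units, exceeded their difference. The low wild-type array came from the same array range as both Spade/Spade arrays and the high one from another range, and the low Spade/Spade array was the one with Eif2s3y. The difference between genotypes at this age, -0.95, was -0.26 with array range as a block and -0.22 with Xist as a covariate.

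Within wild type, the values that chose the gene were a mean of 3.10 ± 0.37 at 2 weeks (SD, n = 2), 6.50 ± 2.32 at 4 weeks and 10.3 ± 0.36 at 6 weeks. The fitted difference of 7.17 between 6 and 2 weeks was the largest of 11984 genes tested, and the next gene, Cyp2e1, a cytochrome of fat and liver that oxidises small molecules, stood at 5.77. In Spade/Spade, whose arrays the choice did not use, the difference between 6 and 2 weeks was 7.09 ± 1.13 (log2 ± SE, adjusted p = 0.012, limma), again the largest of the genes tested. This p is not fully separate from the choice. Its SE draws on all 12 arrays, wild type included, and Akr1c18 passed the filter on low levels only through 4-week and 6-week arrays. So the differences of Akr1c18 between ages in Spade/Spade, with their p and any call, are description, here and below. The Spade/Spade difference is 136-fold as estimated by GCRMA. Both 2-week arrays were called absent, so this fold rests on a level that was not detected. By MAS5 signal, a linear brightness, Spade/Spade arrays read 77.8 and 121.1 at 2 weeks, 103.3 and 254.9 at 4 weeks and 1628.9 and 1017.0 at 6 weeks, which gives 13.3-fold between 6 and 2 weeks with signals under 50 raised to 50. The direction was the same on both scales, and the size depended on how probes were summarised. In whole tissue, fewer cells of a type and less RNA per cell cannot be told apart.

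**Figure D1:**
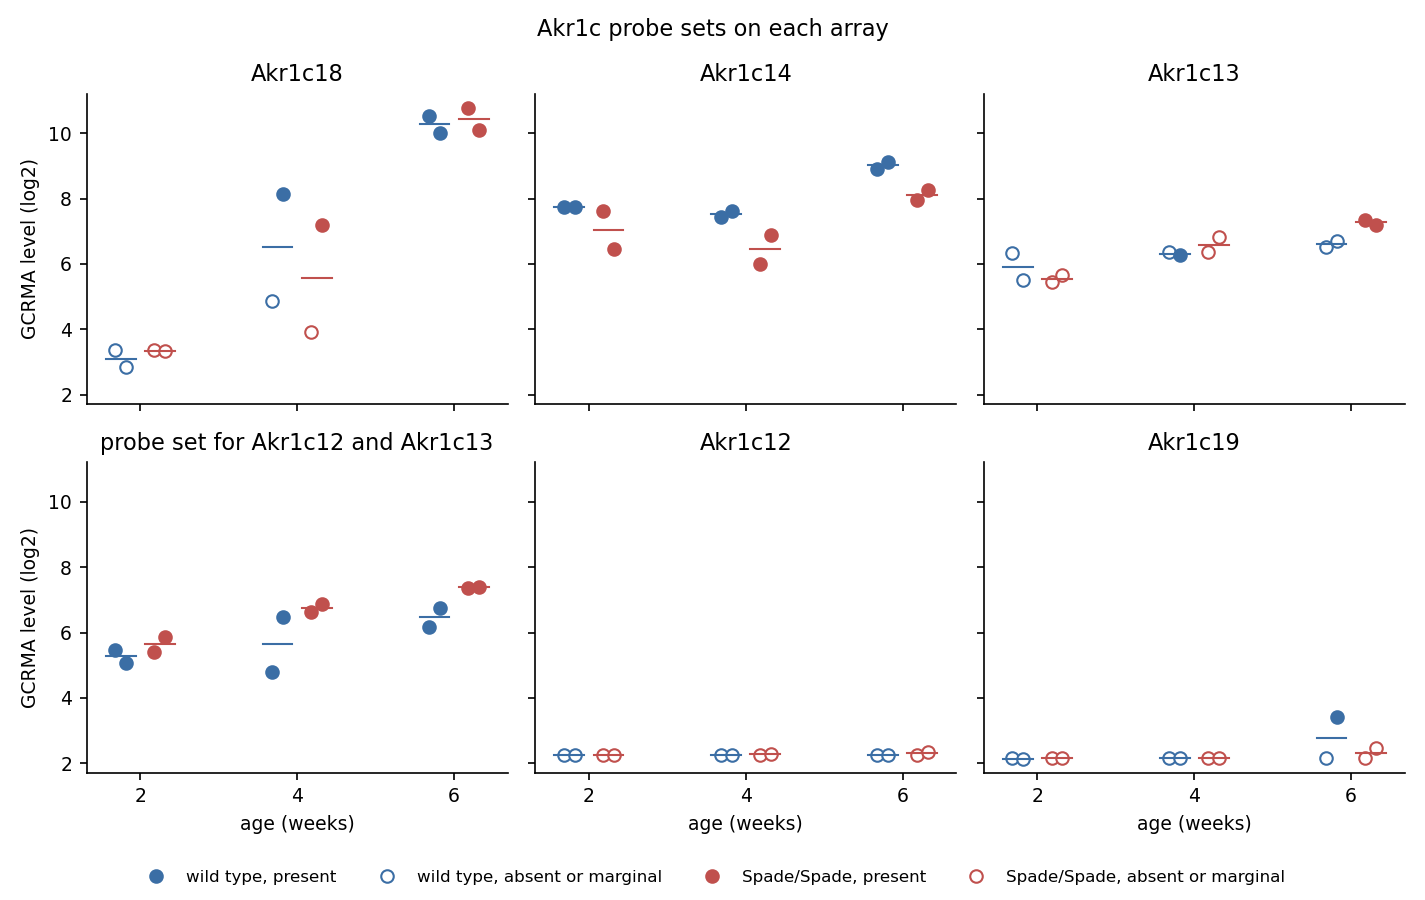
GCRMA level (log2) of the 5 Akr1c probe sets and of the probe set that reads both Akr1c12 and Akr1c13, by age in weeks; each point is 1 array, filled where MAS5 called it present, and a bar is the mean of 2 arrays. Akr1c18 lies between 2.84 and 3.36 at 2 weeks and between 10.0074 and 10.8 at 6 weeks, and Spade/Spade points of Akr1c14 lie below wild type at each age.

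Akr1c14 encodes a hydroxysteroid dehydrogenase that reduces dihydrotestosterone and dihydroprogesterone, making the neurosteroid allopregnanolone from the latter. It was the only member called present on all 12 arrays. Wild type read 7.73 and 7.73 at 2 weeks, 7.42 and 7.63 at 4 weeks and 8.90 and 9.13 at 6 weeks. Spade/Spade read 7.62 and 6.45 at 2 weeks, 6.01 and 6.87 at 4 weeks and 7.95 and 8.26 at 6 weeks. At each age both Spade/Spade arrays lay below both wild-type arrays, a pattern shown by 2.08% of genes tested. Taken singly, 22.4% of genes lay so at 2 weeks, 15.9% at 4 weeks and 25.7% at 6 weeks. The 6-week arrays lay above the younger arrays within each genotype. Against 2 weeks alone, 40.3% of genes lay so in wild type and 36.2% in Spade/Spade. Against 4 weeks alone the shares were 25.2% and 21.0%.

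Akr1c13, whose mouse protein is an NAD-dependent dehydrogenase of alcohols and hydroxysteroids, was near the limit of detection. Wild type read 6.32 and 5.50 at 2 weeks, 6.35 and 6.26 at 4 weeks and 6.51 and 6.70 at 6 weeks, and only the 6.26 was called present. Spade/Spade read 5.45 and 5.64 at 2 weeks, both absent, 6.35 (absent) and 6.82 (marginal) at 4 weeks, and 7.34 and 7.20 at 6 weeks, both present. Within Spade/Spade the 3 ages did not overlap and rose in order, as for 8.0% of genes tested.

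Akr1c12, an enzyme of the same kind, was called absent on all 12 arrays, with levels of 2.26 to 2.33. Akr1c19, another NAD-dependent member, read 2.14 to 3.40 and was present only on 6-week wild-type replicate 3, the array with 3.40. The next highest value of Akr1c19, 2.48, was on 6-week Spade/Spade replicate 4, called absent. Both genes stayed under the filter of 4 or more on at least 2 arrays and were not tested, so 3 of the 5 genes entered the fits. Akr1c18 passed it only through 4-week and 6-week arrays.

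A further probe set, annotated to both Akr1c12 and Akr1c13, cannot be given to either gene and was present on all 12 arrays. Wild type read 5.47 and 5.07 at 2 weeks, 4.80 and 6.48 at 4 weeks and 6.18 and 6.76 at 6 weeks. Spade/Spade read 5.39 and 5.88 at 2 weeks, 6.62 and 6.88 at 4 weeks and 7.37 and 7.39 at 6 weeks. Spade/Spade arrays lay above wild type at 4 weeks, as for 16.1% of genes tested, and at 6 weeks, as for 19.8%, and overlapped at 2 weeks. By MAS5 signal this pattern differed: the genotypes overlapped at 4 weeks (117.7 and 165.6 in wild type, 120.9 and 191.4 in Spade/Spade) and did not at 2 weeks (105.9 and 98.0 against 132.9 and 144.0) or 6 weeks (186.2 and 147.1 against 268.6 and 191.2). Between 6 and 2 weeks in Spade/Spade the difference was 1.75 ± 0.48 (adjusted p = 0.054 over 22289 probe sets, limma), and the genotype difference averaged over ages was 0.80 ± 0.27 (adjusted p = 0.27). Of the other genes named Akr1c on the array, Akr1c6, Akr1c20 and Akr1c21 were absent on all 12 arrays at no more than 2.14, and Akr1cl, on another chromosome, was present on 3 of 12.

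The design asks how Spade/Spade ears differ from wild type at each age and how each genotype changes with age. With age in Spade/Spade, Akr1c13 was higher at 6 than at 2 weeks, and so, as description, was Akr1c18. Akr1c13 differed by 1.72 ± 0.28 (adjusted p = 0.012, limma), which is 3.29-fold by GCRMA and 2.54-fold by MAS5 signal, with both 2-week arrays called absent. Akr1c14 was above its 2-week arrays on both 6-week arrays, a 2.10-fold difference of 1.07 ± 0.38 that did not pass (adjusted p = 0.10). The background of this comparison was large, with 7.58% of the 11984 genes tested called higher, 2.36% called lower and 9.94% called in either direction, and 36.2% having both 6-week arrays above both 2-week arrays. The calls of Akr1c18 and Akr1c13 were lost when 6-week Spade/Spade replicate 3 (adjusted p = 0.086 for both, limma) or replicate 4 (0.072 and 0.073) was left out, and with only the 4 arrays compared in the fit (0.081 and 0.198). Without 2-week Spade/Spade replicate 2, Akr1c14 passed too, at 1.65 (adjusted p = 0.010), while the calls over all genes went from 1191 to 2721. Without replicate 3 of that group the calls over all genes were 909, Akr1c18 (7.07, adjusted p = 0.031) and Akr1c13 (1.82, adjusted p = 0.026) still passed by limma, and Akr1c14 differed by 0.49.

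From 2 to 4 weeks in Spade/Spade, where 1.91% of genes were called, none of the 3 members passed by limma. Akr1c18 differed by 2.21 ± 1.13 (adjusted p = 0.30), Akr1c13 by 1.04 ± 0.28 (adjusted p = 0.084) and Akr1c14 by -0.60 ± 0.38 (adjusted p = 0.41). With each array left out in turn these ran from 0.58 to 3.84 for Akr1c18, from 0.80 to 1.27 for Akr1c13 and from -1.18 to -0.01 for Akr1c14, and Akr1c18 was at 0.74 by MAS5 signal. Both 4-week arrays were above both 2-week arrays for Akr1c18 and Akr1c13, as for 31.4% of genes. From 4 to 6 weeks limma called 0 of 11984 genes (percent called 0). Of these genes 534 had an unadjusted p under 0.05, no more than that threshold lets through when nothing differs. All 3 members were among the 534, and none passed after adjustment. Akr1c18 was at 4.88 ± 1.13 (unadjusted p = 0.0021, limma), Akr1c14 at 1.67 ± 0.38 (unadjusted p = 0.0018) and Akr1c13 at 0.68 ± 0.28 (unadjusted p = 0.036). Each had both 6-week arrays above both 4-week arrays, as did 21.0% of genes.

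For wild type, whose 2-week and 6-week arrays chose the genes, the same differences are description. Between 6 and 2 weeks they were 7.17 for Akr1c18, 1.28 for Akr1c14 and 0.70 for Akr1c13, and the groups did not overlap for any of them, as for 40.3% of all genes in the higher direction. From 2 to 4 weeks they were 3.40, -0.21 and 0.40, and from 4 to 6 weeks 3.76, 1.49 and 0.30, with no overlap in the last step for any of the 3, as for 25.2% of genes. The change from 2 to 6 weeks in Spade/Spade minus that in wild type was -0.08 ± 1.60 for Akr1c18, -0.21 ± 0.54 for Akr1c14 and 1.02 ± 0.39 for Akr1c13. The split at 4 weeks enters the spread that all groups of Akr1c18 share: with only the 4 Spade/Spade arrays of 2 and 6 weeks in the fit, the SE of their difference was 0.30 in place of 1.13.

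**Figure D2:**
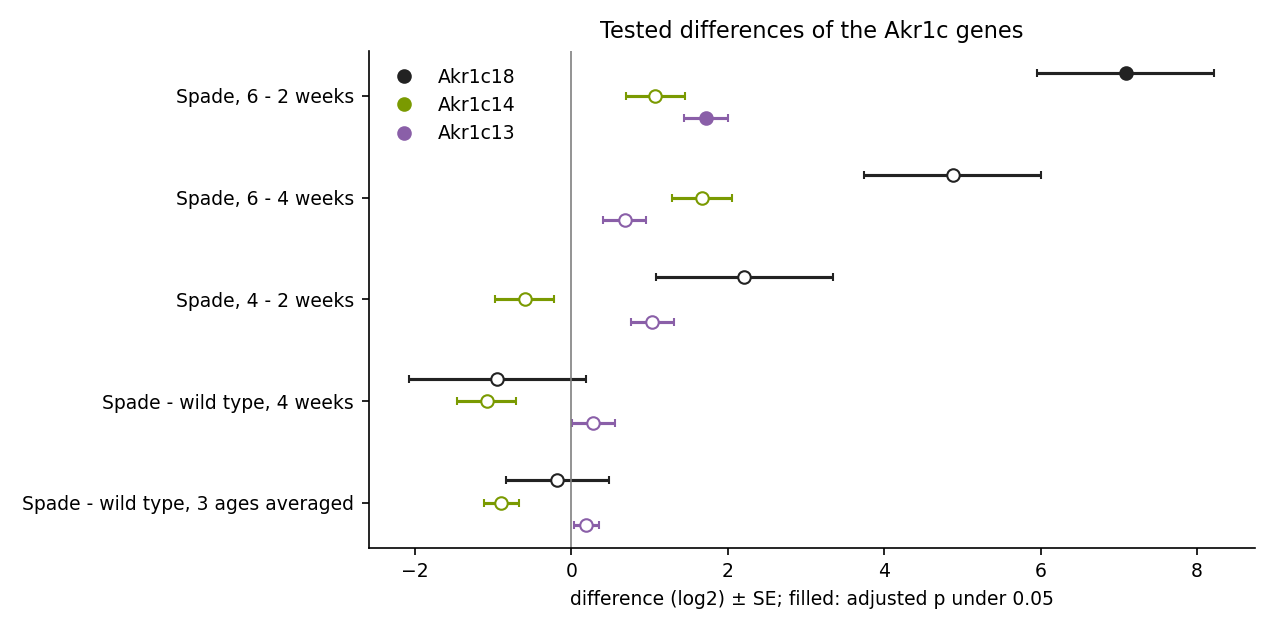
Differences (log2, horizontal axis, ± SE) of Akr1c18, Akr1c14 and Akr1c13 in 5 comparisons, with filled points where the limma adjusted p was under 0.05. The average of Akr1c18 between genotypes and its differences between ages are description. Akr1c18 (7.09) and Akr1c13 (1.72) are filled between 6 and 2 weeks in Spade/Spade, and Akr1c14 lies at -0.89 and -1.08 in the comparisons with wild type.

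Between genotypes no member tested passed. Akr1c14 was the member with the most even difference, lower in Spade/Spade by 0.89 on the log2 scale averaged over the 3 ages, that is -0.89 ± 0.22 or 1.86-fold (unadjusted p = 0.0029, adjusted p = 0.11, limma). In this comparison 0.643% of genes were called in either direction and 0.108% were called lower. At 4 weeks its difference was -1.08 ± 0.38 (unadjusted p = 0.019, adjusted p = 1.0, limma), with both Spade/Spade arrays below wild type as for 15.9% of genes. At that age limma called 0 of 11984 genes (percent called 0). Of these genes 432 had an unadjusted p under 0.05, no more than that threshold lets through when nothing differs. At 2 and 6 weeks, given as description, Akr1c14 differed by -0.70 and -0.90.

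One array decides whether the average for Akr1c14 is a call. Without 2-week Spade/Spade replicate 2, which read 7.62, it was -1.09 with an adjusted p of 0.0076 by limma, while the calls over all genes went from 77 to 1070 of 11984. Over the other arrays left out in turn it ran to -0.70, without replicate 3 of the same group, and it was -0.75 without 4-week Spade/Spade replicate 1. By MAS5 signal the 2 Spade/Spade arrays were also lower on average at each age, at 149.8 against 202.4 at 2 weeks, 110.1 against 205.2 at 4 weeks and 295.8 against 445.1 at 6 weeks. At 2 weeks these signals overlapped, with Spade/Spade at 196.1 and 103.5 and wild type at 163.5 and 241.3.

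Akr1c18 differed between genotypes by -0.95 ± 1.13 at 4 weeks (adjusted p = 1.0, limma) and, as description, by -0.18 ± 0.65 on average. The direction of both turned when 4-week wild-type replicate 3 or 4-week Spade/Spade replicate 1 was left out. Akr1c13 differed by 0.19 ± 0.16 on average (adjusted p = 0.61, limma) and by 0.28 ± 0.28 at 4 weeks (adjusted p = 1.0). As description, the mean of Akr1c13 in Spade/Spade minus wild type was -0.36 at 2 weeks, where the groups overlapped and the mean MAS5 signals were 89.0 against 86.9, and 0.66 at 6 weeks, where the groups did not overlap, as for 19.8% of genes in that direction. A p that missed the threshold does not show that the genotypes were alike.

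Among 72 tested genes of the same pathways, 13 rose and 3 fell between 6 and 2 weeks in Spade/Spade, against 7.58% and 2.36% of all genes. Of those that fell, Slc7a11 passed the filter only through the 2-week Spade/Spade arrays, so its fall is description. Between genotypes averaged over ages 0 were called, where 0.643% of all genes were. This 0 too rests on single arrays, as it did not hold without 2-week Spade/Spade replicate 2. The lists are other aldo-keto reductases, other enzymes of steroid synthesis and breakdown, steroid and progestin receptors, prostaglandin genes, and targets of NRF2, the factor that induces detoxifying enzymes. These counts move with single arrays: the 16 calls became 28 without 2-week Spade/Spade replicate 2, 8 without replicate 3 of that group (4 higher, 4 lower), and 0 without either 6-week Spade/Spade array, while calls over all genes went from 1191 to 2721, 909, 1 and 16. Between 6 and 2 weeks in Spade/Spade the median difference of all genes tested was 0.12. Of 9 receptor genes tested, 3 rose and 0 fell, with a median of 0.58. Nr3c2, the mineralocorticoid receptor, rose by 1.76 ± 0.33 (adjusted p = 0.019, limma), Esr1, oestrogen receptor alpha, by 1.27 ± 0.20 (adjusted p = 0.012) and Paqr5, a membrane progestin receptor, by 1.07 ± 0.24 (adjusted p = 0.031). Paqr7 and Paqr8, from the same membrane family, differed by 1.29 ± 0.54 and -1.03 ± 0.47 without passing. Without 2-week replicate 3, Nr3c2 and Esr1 passed, Paqr5 differed by 1.01 (adjusted p = 0.080, limma), and Paqr7 and Paqr8 by 0.77 and -0.17.

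Of 17 other steroid enzymes tested, 0 rose and 1 fell between 6 and 2 weeks in Spade/Spade, with a median of 0.30. Of all genes tested, 7.58% rose and 2.36% fell in this comparison. The one that fell was Hsd17b4, a peroxisomal enzyme of steroid and fatty acid oxidation, at -0.66 ± 0.11 (adjusted p = 0.012, limma). Cyp17a1, which makes androgen precursors, and Hsd11b1, which reactivates glucocorticoids, differed by -2.23 ± 0.75 and 2.04 ± 0.87 without passing. Hsd11b1 was at 0.23 without 2-week replicate 3. Of 5 other aldo-keto reductases tested, 1 rose, with a list median of 0.02. It was Akr1b8, which reduces aldehydes, at 0.91 ± 0.22 (adjusted p = 0.035, and 0.081 without 2-week replicate 3).

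Of 16 prostaglandin genes tested, 2 rose and 1 fell, with a median of 0.38, where 7.58% of all genes rose and 2.36% fell. Abcc4, an exporter of prostaglandins, rose by 1.30 ± 0.30 (adjusted p = 0.031, limma) and Slco2a1, an importer, by 0.80 ± 0.18 (adjusted p = 0.029). Ptgds, which makes prostaglandin D, fell by 1.53 ± 0.27 on the log2 scale (adjusted p = 0.016). Ptgs2, the inducible cyclooxygenase, differed by 3.48 ± 0.98 without passing (adjusted p = 0.056), and Ptgis, prostacyclin synthase, by 1.41 ± 0.55. Without 2-week replicate 3 Ptgds alone of these passed, Abcc4 was at 0.79 (adjusted p = 0.060, limma), Slco2a1 at 0.73 (adjusted p = 0.081) and Ptgis at 0.33.

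Of 26 NRF2 targets tested, 7 rose and 1 fell, with a median of 0.31, where 7.58% of all genes rose and 2.36% fell. Gsta3 and Gsta4, glutathione transferases, rose by 2.73 ± 0.37 (adjusted p = 0.0092, limma) and 1.34 ± 0.28 (adjusted p = 0.026). Me1, malic enzyme, rose by 0.88 ± 0.23 (adjusted p = 0.044). The gene that fell, Slc7a11, the cystine importer, was lower by 1.64 ± 0.23 on the log2 scale, near the limit of detection. MAS5 called it present on 6 of 12 arrays. It reached the filter of 4 only on the 2-week Spade/Spade arrays (4.29 and 4.14), so its differences from them are description. Aldh1a1 and Aldh3a1, aldehyde dehydrogenases, differed by 1.45 ± 0.63 and 1.10 ± 0.31 without passing. Without 2-week replicate 3 the list had 2 genes higher and 1 lower, Gsta4 was at 1.03 (adjusted p = 0.075, limma), Me1 at 0.46 (adjusted p = 0.070), and Aldh1a1 and Aldh3a1 at 0.26 and 0.55. From 2 to 4 weeks the only genes of these 5 lists called were Gsta3 (2.25 ± 0.37, adjusted p = 0.032, limma) and Slc7a11. The difference of Slc7a11, -1.75 ± 0.23, is description for the same reason. Neither gene was called without 6-week Spade/Spade replicate 3 or 4, arrays that enter this comparison only through the shared spread. More genes of these lists were called without 2-week replicate 2.

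**Figure D3:**
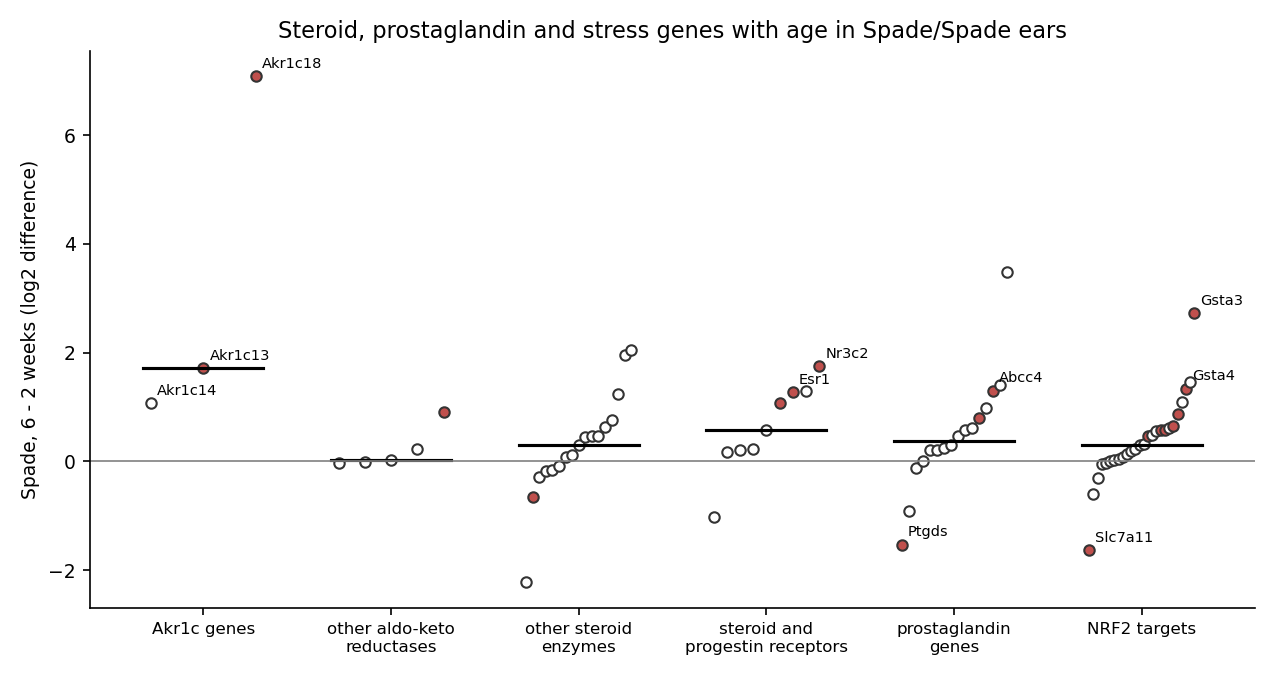
Difference between 6 and 2 weeks in Spade/Spade ears (log2, vertical axis) of the tested Akr1c genes and of 5 pathway lists; each point is 1 gene, filled where the limma adjusted p was under 0.05, and a bar is the list's median. Akr1c18 (7.09) lies above every gene of the lists, whose highest is Ptgs2 (3.48). It was chosen for the size of its rise in wild type, so its height beside the lists is no test. Akr1c18 and Slc7a11 are filled, but their differences are description.

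Between genotypes, averaged over ages, list medians ran from -0.13 for the receptors to 0.05 for the other aldo-keto reductases, beside -0.03 for all genes tested. The differences largest in size, none past the test with all arrays in the fit, were Star (1.36 ± 0.49), which carries cholesterol into mitochondria, and Cyp17a1 (0.99 ± 0.43). Ptges, prostaglandin E synthase, differed by 0.77 ± 0.25, Nr3c2 by -0.65 ± 0.19 and Slc7a11 by 0.63 ± 0.13. Ptgfr, the prostaglandin F receptor, differed by -0.63 ± 0.23 and Hmox1, haem oxygenase, by 0.58 ± 0.22. Star and Slc7a11 passed the filter only through Spade/Spade arrays, so their differences are description.

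The genes whose levels ran most like Akr1c18 over the 12 arrays were Micall1 (Pearson r 0.961, Spearman rho 0.946), Washc2 (0.960 and 0.883), Man2c1 (0.951 and 0.925), Vps13a (0.950 and 0.900) and Abhd2 (0.950 and 0.876), of 11983 genes ranked. Micall1 and Washc2 act in endosomal traffic, Man2c1 trims free glycans, Vps13a moves lipids between membranes and Abhd2 is a lipase. The 12 points share 3 ages and the array ranges that go with them, so the values describe these arrays and carry no test. These genes were present on all 12 arrays and moved far less, with Micall1 at 0.65 ± 0.14 and Abhd2 at 0.50 ± 0.18 between 6 and 2 weeks in Spade/Spade. Esr1, named here after its values were seen, ranked 13 (0.934 and 0.932). At 4 weeks Esr1 read 7.60 and 8.13 in wild type and 7.86 and 7.73 in Spade/Spade, so it lacked the split that Akr1c18 showed in Spade/Spade. Akr1c13 ranked 548 (0.809 and 0.832) and Akr1c14 1972 (0.654 and 0.592), and these 2 neighbours of Akr1c18 correlated with each other at 0.326.

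**Figure D4:**
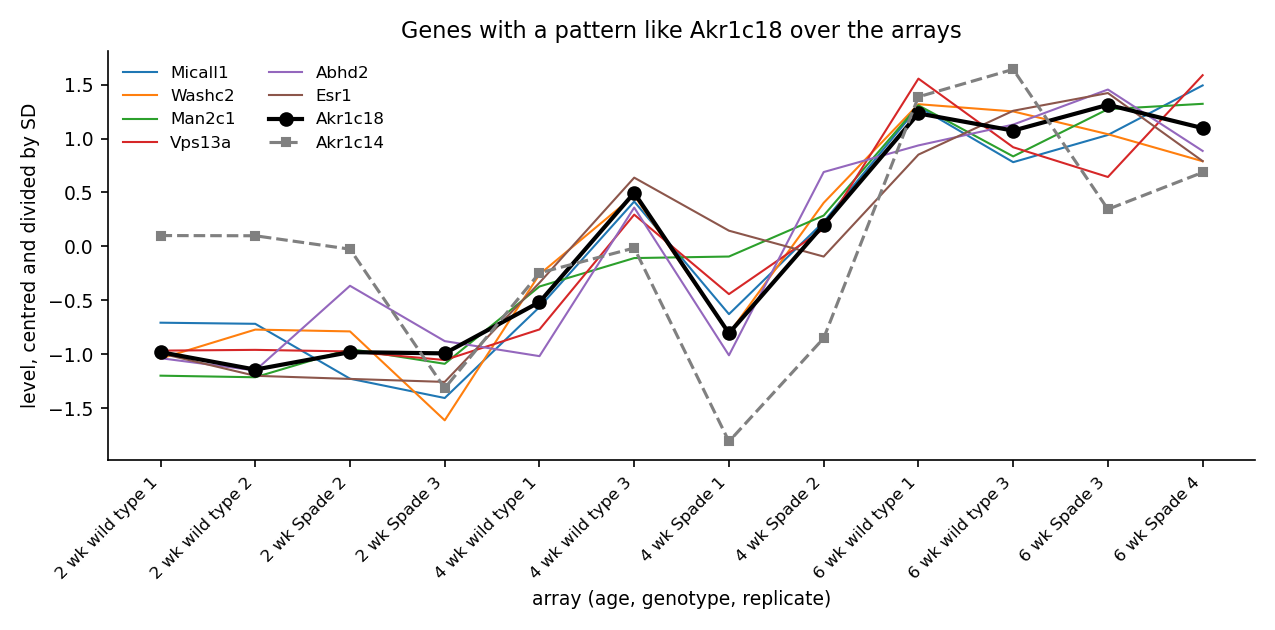
Level of Akr1c18, the 5 genes most like it, Esr1 and Akr1c14 on each of the 12 arrays, each gene centred on its mean and divided by its SD (vertical axis, no unit). The lines of the 5 genes and Esr1 follow Akr1c18, with Pearson r of 0.934 to 0.961, while Akr1c14 (0.654) dips in Spade/Spade arrays at 4 weeks.

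Markers of cell types of the ear moved with age too. Between 6 and 2 weeks in Spade/Spade, 7.58% of all genes tested were called higher and 2.36% lower. All 4 adipocyte markers on the array rose between 6 and 2 weeks in Spade/Spade, with a median of 2.62, and their mean level went from 7.02 and 7.98 on the 2-week arrays to 9.23 and 9.99 at 4 weeks and 9.65 and 10.15 at 6 weeks. In wild type it was 7.60 and 7.86, 9.79 and 9.86, and 10.39 and 10.43 at these ages. All 5 melanocyte markers fell in Spade/Spade, with a median of -1.70 and a mean level of 10.83 and 11.20 at 2 weeks and 9.08 and 9.54 at 6 weeks. Of 11 hair shaft markers none was positive and 0 were called by limma, with a median of -5.14, and of 6 sebaceous gland markers 3 were positive and 0 were called. Without 2-week Spade/Spade replicate 3 the hair shaft median was -0.85, 2 of the 4 adipocyte markers and 1 of the 5 melanocyte markers were called, and without 6-week replicate 3 or 4 the calls were 0 and 1 of the adipocyte and 0 and 0 of the melanocyte markers. All 8 skeletal muscle markers were positive with 0 called and a median of 1.32. The other lists had 0 to 1 gene called in each direction. Between genotypes, on average, 0.643% of all genes tested were called in either direction. All 8 macrophage markers were positive in this comparison and 3 rose, with a median of 0.68. Of 3 neutrophil markers tested 3 were positive and 1 rose (median 2.27), of 7 mast cell and basophil markers 7 and 2 (0.45), and of 4 T cell markers 4 and 0 (0.59). The macrophage, neutrophil and mast cell and basophil calls were lost without 6-week Spade/Spade replicate 3 or 4, with macrophage medians of 0.68 and 0.70. All 11 hair shaft markers were positive with 0 called (0.97, and -0.34 without 2-week Spade/Spade replicate 3). The 8 skeletal muscle, 5 cartilage and 4 adipocyte markers were all negative with 0 called (medians -0.62, -0.49 and -0.33), and no other list had a gene called. Csf3r of the neutrophil list and Hba-a1 of the red cell list were the only markers on the array called absent on all 12 arrays. The markers' part in the Akr1c results was not tested.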

How the data were processed

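Each Affymetrix mouse genome array carried 45101 probe sets. The log2 values are the deposited GCRMA values, which the authors normalized per chip, per the series design text. Intensity values are the MAS5 signals deposited per array with detection calls, per the submitters' processing notes; versions are not given in the sources used here. The series matrix equals the GCRMA table within 5e-09, and a median-divided copy of the signals was not used.

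Probe set names come from GEO's platform annotation (34958 with 1 gene, 932 with several, 9211 with none). Per gene the probe set with the highest mean was kept, and the 11984 genes at 4 or more on at least 2 arrays were tested with limma 3.58.1 in R 4.3.3. The fit had 6 group means on all 12 arrays, 6 residual degrees of freedom, a variance trend and Benjamini-Hochberg adjustment, with calls at adjusted p under 0.05. The fit was tested on simulated data. Few arrays limit precision. The members and lists were chosen with earlier results of these data known. Genes named are the members, Jak1, up to 4 called and 2 other genes by absolute change per list and comparison, and the 5 genes most like Akr1c18; Cyp2e1, Esr1's likeness and sex-linked genes were named besides. Marker lists numbered 17. Figures used matplotlib 3.10.9, and tables Python 3.11.15 with pandas 2.3.3. Alternatives were MAS5 signals, other filters, probe set rules, scalings, variance prior, a 2-fold minimum, array range or replicate as a block, fixed pairs (added after seeing the data), Xist as a covariate, only the arrays compared, and each array left out.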

Additional observations from a re-analysis of the deposited data

How the results depend on the processing

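With 2 arrays a group, most calls rest on single arrays. The counts of members below include Akr1c18, whose differences between ages in Spade/Spade are description. For Spade/Spade at 6 against 2 weeks, the 2 members called became 0 with only the arrays compared, and ranged from 0 to 3 when arrays were left out in turn, 0 without either 6-week Spade/Spade array. For genotype averaged over ages the count ranged from 0 to 1 (Akr1c14 without 2-week Spade/Spade replicate 2), and in the other 3 comparisons it was 0 under each alternative. Among the tested members and comparisons the direction turned for Akr1c18 between genotypes: at 4 weeks without wild-type replicate 3 (0.69) or Spade/Spade replicate 1 (0.68), and on average without these arrays (0.37 and 0.36) by MAS5 signal (0.059) or in fixed pairs (0.12). Among the values given as description, MAS5 signal turned Akr1c13 at 2 weeks (0.02) and Akr1c18 at 6 weeks (-0.04) between genotypes. It also turned Akr1c14 at 4 against 2 weeks in wild type (0.04). With each array left out in turn, Akr1c18 between genotypes ran from -2.58 to 0.69 at 4 weeks and from -0.72 to 0.37 on average. Akr1c18 at 6 against 2 weeks in Spade/Spade ran from 3.73 (MAS5) to 7.10 under alternatives that kept all arrays of the groups. Akr1c14 between genotypes on average ran from -0.90 to -0.68 under those (adjusted p 0.051 to 0.26, limma). The 2 groups of each single comparison share fewer than 2 replicate numbers. Over the 3 ages, 3 pairs share age and number, and a fixed replicate block on those pairs, chosen after seeing the data and with 2 residual degrees of freedom, gave -0.90 for Akr1c14 (adjusted p = 0.36), 0.20 for Akr1c13 and no member called. A random replicate block within age (consensus correlation 0.427) gave -0.90 for Akr1c14 on average (adjusted p = 0.051), 2 members called at 6 against 2 weeks, 0 in the other comparisons, and changed no call. The array range as a block gave -0.89 for it (adjusted p = 0.16) and could not be fitted for comparisons with 2 weeks. Counts over all genes for genotype on average were 77, against 24 with no filter, 24 with the array range block, 238 with the replicate block, 119 by MAS5 signal, and 2 to 1070 when 1 array was left out. At 6 against 2 weeks they were 1191, against 684 with no filter and 747 with median centring, and at 4 against 2 weeks 229, against 574 with median centring and 0 with Xist as a covariate. Median centring moved the median of all genes from -0.01 to 0.10 at 4 weeks between genotypes, from 0.09 to 0.21 at 4 against 2 weeks and from 0.02 to -0.13 at 6 against 4 weeks; no member changed direction under it. The causes were not tested.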
